A study of Mus musculus with 12 samples.

Results

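Trim33, the other TIF1 family genes Trim24 and Trim28, the HP1 genes Cbx1, Cbx3 and Cbx5, and the histone H3 lysine 9 (H3K9) methyltransferase genes Setdb1, Suv39h1, Ehmt1 and Ehmt2 were followed through a mouse embryoid body experiment on Affymetrix expression arrays. The members were all probe sets, the groups of short probes that each give 1 signal, that the platform annotation names with 1 of these 10 gene symbols alone. This found 25 probe sets of 9 genes among 45037 that are not controls. Trim33 had 3 probe sets, Trim24 3, Trim28 2, Cbx1 5, Cbx3 1, Cbx5 5, Setdb1 3, Ehmt1 1 and Ehmt2 2. A further 4 probe sets are listed under both Cbx3 and the pseudogene Cbx3-ps5; their signal cannot be assigned to either and they are given apart. Suv39h1 was matched to no probe set and is not analysed here. The rule used no measured value, but the genes were chosen with earlier results of these data known.

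Embryoid bodies are aggregates in which embryonic stem cells differentiate. They were grown from strain 129 embryonic stem cells of 3 genotypes, without LIF and in low-attachment dishes, and treated on day 2.5 for 2 h. The 6 groups were Trim33 knock-down embryoid bodies with activin at 50 ng/ml (Trim33-KD-ac) or with SB431542 (Trim33-KD-SB), Smad4-null embryoid bodies with activin (Smad4-null-ac) or SB431542 (Smad4-null-SB), and wild-type embryoid bodies with activin (WT-ac) or SB431542 (WT-SB), each with 2 arrays. SB431542 blocks the activin and nodal type I receptors. Its label dose is 10 mM, far above the micromolar range in which it is usually used, and whether the unit is an error is not known. There was no untreated group, and an activin minus SB431542 difference can come from either agent. The method of the knock-down and the number of clones behind each genotype are not stated in the labels, and a clone's own state and its genotype cannot be told apart. Whether the replicates came from separate cultures is not stated in the labels; p-values cover the spread between these arrays, which may be technical.

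The TIF1 proteins Trim33, Trim24 and Trim28 share a RING finger, B-boxes and a coiled coil at one end and a PHD finger with a bromodomain at the other. Trim33 (TIF1 gamma) binds Smad2 and Smad3 after activin or nodal signalling and can bind histone H3 through its PHD finger and bromodomain, and it can also act on Smad4 as a ubiquitin ligase. Trim28 (TIF1 beta, KAP1) is recruited by KRAB zinc finger proteins and brings in the methyltransferase Setdb1, and HP1 proteins bind the methylated H3K9 that results. Trim24 (TIF1 alpha) is a nuclear receptor cofactor. Suv39h1 methylates H3K9 in pericentric heterochromatin, and Ehmt1 (GLP) and Ehmt2 (G9a) form a dimer that methylates it in euchromatin. In embryonic stem cells these enzymes keep retroviral elements and germline genes silent.

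The values are the deposited log2 signals, and the number of arrays limits their precision. Array medians ran from 5.85 to 6.30. The log2 signals spread less on WT-SB replicate 2 (SD 3.07) and Smad4-null-ac replicate 1 (SD 3.12) than on the other 10 arrays (SD 3.24 to 3.38). All 5 measured epiblast markers (Pou5f1, Sox2, Fgf5, Otx2 and Dnmt3b) were above the array median on every array. This held for 1 of 5 extraembryonic endoderm, 2 of 4 trophectoderm and 2 of 6 fibroblast markers. In whole embryoid bodies, fewer cells of a type and less RNA per cell cannot be told apart. A probe set was called raised or lowered when its limma p-value, adjusted by the Benjamini-Hochberg method over all 45037 probe sets, was under 0.05. The median of all probe sets in Trim33-KD minus WT was -0.13 as deposited, -0.0021 after quantile normalization and 0.08 with each array centred on its median, so small differences in this comparison move with the scaling.

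Trim33 RNA was lowered in Trim33-KD embryoid bodies, with both treatments and on every array, and to a like depth at both bright probe sets. On the brightest Trim33 probe set, the log2 signals were 10.29 and 10.25 in Trim33-KD-ac and 10.35 and 9.85 in Trim33-KD-SB arrays. They were 11.82 and 11.79 in Smad4-null-ac, 11.69 and 11.62 in Smad4-null-SB, 11.63 and 11.73 in WT-ac, and 11.58 and 11.95 in WT-SB arrays. The 4 knock-down arrays lay apart from the 8 others, which overlapped. The difference between Trim33-KD and WT over both treatments was -1.54 (SE 0.14, 95% interval -1.88 to -1.20, limma adjusted p = 0.0271), which left 34.4% of the WT signal (95% interval 27.3 to 43.5%).

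The next brightest Trim33 probe set gave the same picture. Its signals were 8.99, 8.62, 8.87 and 8.48 in Trim33-KD, 10.36, 10.60, 10.50 and 10.67 in Smad4-null, and 10.53, 10.52, 10.48 and 10.31 in WT arrays. The Trim33-KD minus WT difference was -1.72 (SE 0.15, limma adjusted p = 0.0271), and 30.3% of the WT signal was left (95% interval 23.9 to 38.3%). For each of these probe sets the exact two-sided permutation p was 0.0286, the smallest that 4 arrays against 4 (70 splits) allow. Any probe set whose arrays do not overlap between the genotypes reaches it, as 9.9% of all probe sets did. Among them were uncalled probe sets of Trim24, Cbx1 and Ehmt1, so this p is not particular to Trim33. The third and dimmest Trim33 probe set was below the array median on all 12 arrays and carries little information. It differed by -0.82 (95% interval -2.46 to 0.82, limma adjusted p = 0.625).

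**Figure D1:**
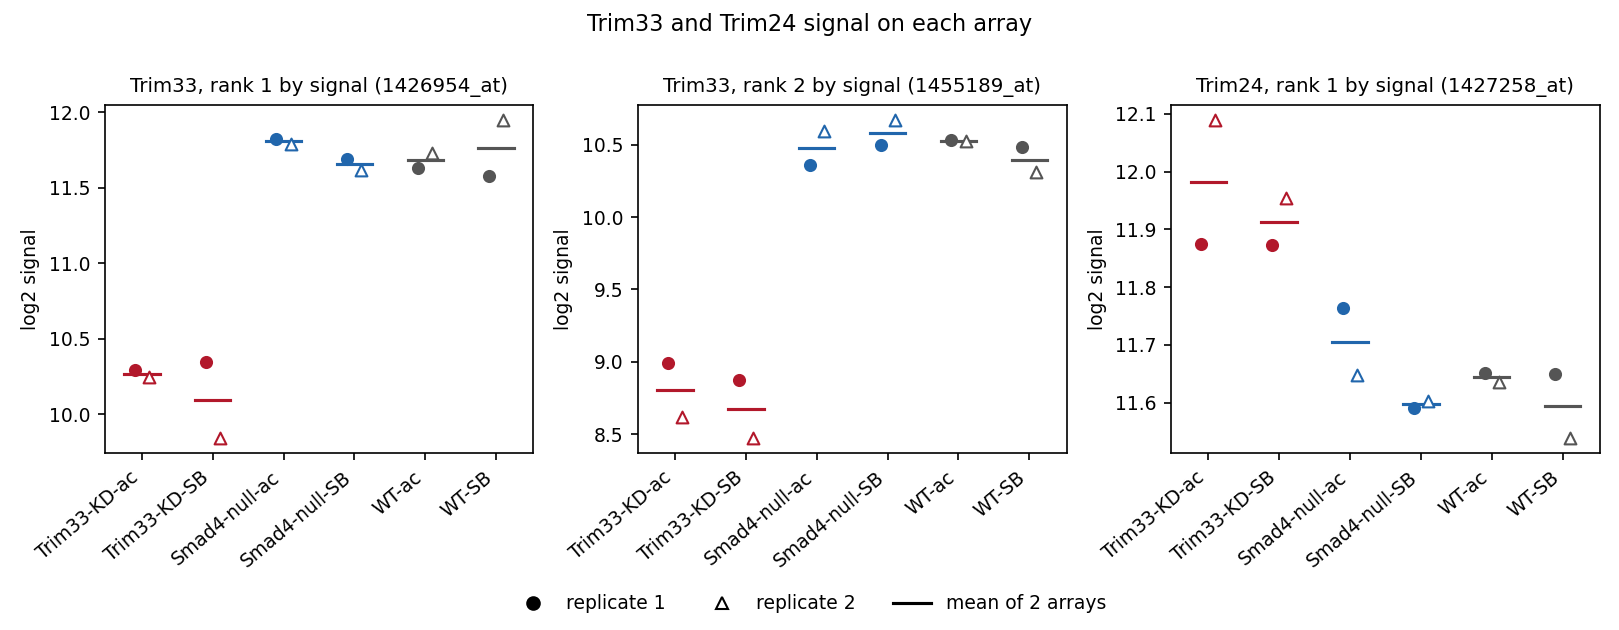
Log2 signal (vertical axis) of both bright Trim33 probe sets and of the brightest Trim24 probe set on each array, by group (horizontal axis); circles are replicate 1, triangles replicate 2 and bars the mean of 2 arrays. On the Trim33 probe sets the 4 Trim33-KD arrays sit below all 8 others, and on the Trim24 probe set they sit above them.

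In linear terms, each knock-down array kept between 26.5% and 38.1% of the mean WT signal of its treatment on the brightest Trim33 probe set, and between 26.4% and 34.8% on the other bright one. Within activin the difference was -1.41 and within SB431542 -1.67 on the brightest probe set, each 2 arrays against 2. These had limma adjusted p of 0.199 and 0.156 and were not called, and no other probe set of the table was called within a treatment. On the next brightest the within-treatment differences were -1.73 and -1.72. From high to low, the group means of the brightest Trim33 probe set ran Smad4-null-ac 11.81, WT-SB 11.76, WT-ac 11.68, Smad4-null-SB 11.66, Trim33-KD-ac 10.27 and Trim33-KD-SB 10.10. The arrays of neighbouring groups in this order overlapped everywhere but between Smad4-null-SB and Trim33-KD-ac.

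These Trim33 probe sets were the 2 of 25 member probe sets called in Trim33-KD minus WT, where 51 of all 45037 (0.113%) were called. With any single array left out, 0 to 22 of all probe sets were called. Of all probe sets, 0.0688% were raised and 0.0444% lowered, and by size the Trim33 differences ranked 12 and 11 among the 20 lowered. The call depends on small changes of the fit. Leaving out any single array except Trim33-KD-SB replicate 1 put the adjusted p of the brightest Trim33 probe set between 0.0607 and 0.116 with a difference of -1.63 to -1.41, and without Trim33-KD-SB replicate 1 it was 0.0314. With the replicate number as a block it was 0.0654.

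Against Smad4-null arrays, which carry no Trim33 knock-down, the Trim33 differences were -1.55 and -1.79 (limma adjusted p = 0.00147 and 0.000902), with 34.2% and 28.9% of the Smad4-null signal left. Smad4-null and WT arrays differed by 0.01 (95% interval -0.33 to 0.35) and 0.07 (-0.27 to 0.41) on these probe sets, neither called. In Trim33-KD minus Smad4-null 3 of 25 member probe sets were called and all were lowered, of 9.47% of all probe sets called, 5.11% raised and 4.36% lowered. The third was a Cbx1 probe set described with the Smad4-null results.

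The genes whose signal ran most like Trim33 were found among 20032 probe sets of 1 symbol with a mean signal above the median of the table. Likeness was the root mean square difference from the brightest Trim33 probe set over the 12 arrays, in log2 units after each probe set was centred on its own mean. The other bright Trim33 probe set stood at 0.208 and the median candidate at 0.770. The closest were Acta2 (0.244), Rhox5 (0.244), Stard8 (0.247), Timp3 (0.302) and Plcd1 (0.356). These genes were chosen on the arrays of the comparison, so their differences are a description with no test. Acta2 encodes smooth muscle actin, Rhox5 an X-linked homeobox protein, Timp3 an inhibitor of matrix metalloproteinases and Plcd1 a phospholipase C. In Trim33-KD minus WT they differed by -1.21 (Stard8) to -0.88 (Plcd1).

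The partners through which Trim33 meets the activin pathway had near-equal signal in the knock-down. Smad2 differed by 0.11 (95% interval -0.11 to 0.32), Smad3 by -0.09 (-0.32 to 0.15) and Smad4 by -0.07 (-0.31 to 0.17), and none was called. In Smad4-null minus WT the brightest Smad4 probe set differed by 0.20 (-0.03 to 0.44) and was not called. The place of its probes with respect to the mutation was not given, and this signal is no check of the label.

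Neither Trim24 nor Trim28 was called raised in Trim33-KD minus WT, and Trim24 came nearest. The brightest Trim24 probe set had log2 signals of 11.87 and 12.09 in Trim33-KD-ac and 11.87 and 11.95 in Trim33-KD-SB arrays. It had 11.76 and 11.65 in Smad4-null-ac, 11.59 and 11.60 in Smad4-null-SB, 11.65 and 11.64 in WT-ac, and 11.65 and 11.54 in WT-SB arrays. All 4 knock-down arrays were above all 8 others. The Trim33-KD minus WT difference was 0.33 (SE 0.10, 95% interval 0.09 to 0.56), or 126% of the WT signal (107 to 148%).

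This Trim24 difference had a limma adjusted p of 0.262, and over the alternative settings its adjusted p ran from 0.0695 to 0.527 with a difference of 0.27 to 0.53. In Trim33-KD minus Smad4-null it was 0.30 with a limma adjusted p of 0.117. That difference was called under 4 of 23 alternatives: with the upper 50% of probe sets (adjusted p = 0.0307), a floor of 64 on the linear scale (0.0217), 1 probe set per gene (0.0417) and a trended, robust prior (0.0198). The other Trim24 probe sets did not separate the genotypes in the same way. On the next brightest Trim33-KD minus WT was 0.05 (95% interval -0.43 to 0.53), and on the dimmest, where Trim33-KD-SB replicate 2 read 3.77 and the other knock-down arrays 6.10 to 6.84, it was -0.75 (-2.32 to 0.83).

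Trim28 was the brightest member, with a mean signal over the arrays that 99.6% of all probe sets were dimmer than. Its brighter probe set read 13.68 to 13.91 in Trim33-KD, 13.63 to 14.38 in Smad4-null and 13.45 to 14.19 in WT arrays, and the genotypes overlapped. Trim33-KD stood at 106% of the WT signal on it (95% interval 77.3 to 146%) and at 104% on the dimmer one (84.2 to 129%). The ID of the brighter one marks it as holding probes that may also bind other transcripts. Trim66, a further TIF1 relative with a low mean signal of 4.29, differed by 0.24 in Trim33-KD minus WT and by 0.07 in Smad4-null minus WT and was not called.

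**Figure D2:**
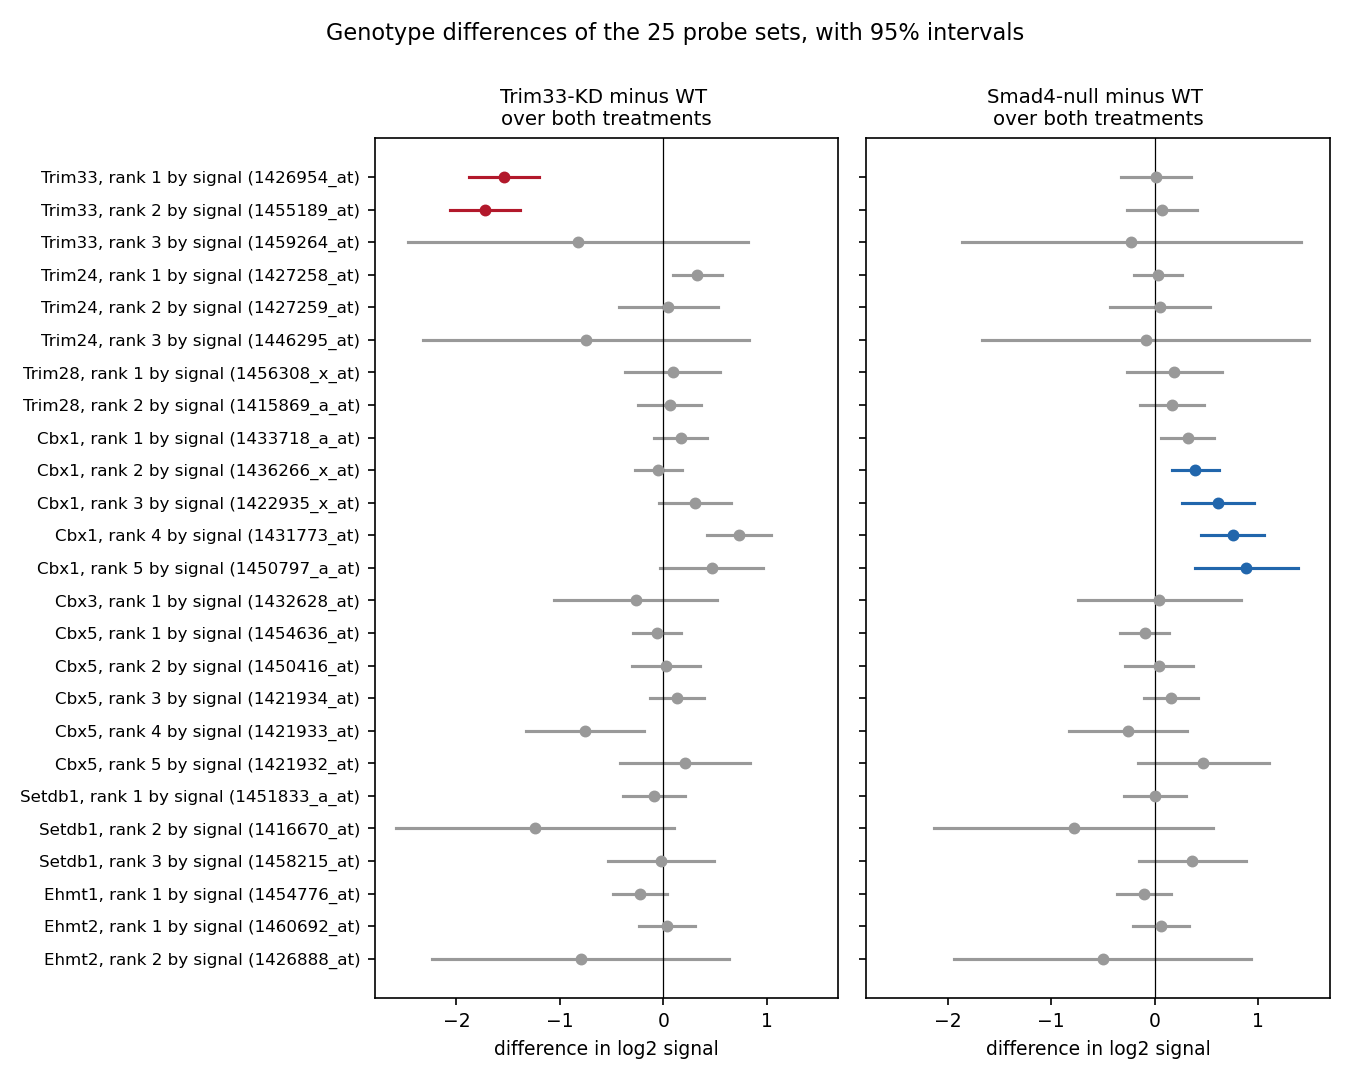
Difference in log2 signal from WT (horizontal axis) of each member probe set (vertical axis), for Trim33-KD and Smad4-null over both treatments, with 95% limma intervals; coloured points are called and grey ones are not. In Trim33-KD the called points are the 2 bright Trim33 probe sets, and in Smad4-null 4 Cbx1 probe sets.

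The HP1 genes had no call in the knock-down. Cbx1 encodes HP1 beta, Cbx3 HP1 gamma and Cbx5 HP1 alpha, all of which bind methylated H3K9 through a chromodomain. The brightest Cbx1 probe set read 12.61 to 12.77 in Trim33-KD and 12.29 to 12.62 in WT arrays and differed by 0.17 (95% interval -0.09 to 0.42). The Cbx1 probe set of the fourth rank by mean signal separated the genotypes, with 7.19, 7.48, 7.49 and 7.66 in Trim33-KD arrays against 6.83, 6.51, 6.80 and 6.76 in WT arrays. Its difference of 0.73 (95% interval 0.42 to 1.04) was not called (limma adjusted p = 0.125, and 0.0213 when only the brighter 50% of the probe sets were tested). The 3 remaining Cbx1 probe sets overlapped and differed by -0.05 to 0.46.

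Cbx5 was measured by 5 probe sets of very different brightness. The brightest read 12.14 to 12.32 in Trim33-KD and 12.23 to 12.34 in WT arrays and differed by -0.06 (95% interval -0.30 to 0.17). The largest Cbx5 difference was on the fourth in brightness, with 7.27, 7.00, 6.55 and 6.09 in Trim33-KD arrays and 8.03, 7.00, 7.68 and 7.24 in WT arrays. It came to -0.76 (-1.33 to -0.19, limma adjusted p = 0.281) and the genotypes overlapped. The other Cbx5 probe sets differed by 0.02 to 0.21.

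The single Cbx3 probe set lay near the array median, above it on 8 of 12 arrays, and differed by -0.27 (95% interval -1.05 to 0.52). Of the 4 probe sets shared with Cbx3-ps5, 3 were bright and differed by -0.12 to -0.10 in Trim33-KD minus WT, not called. The fourth was below the array median on all 12 arrays and differed by -0.54 (-1.98 to 0.91).

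Among the methyltransferase genes the brightest probe sets stayed close to WT. Setdb1 read 10.59 to 10.78 in Trim33-KD and 10.66 to 10.92 in WT arrays and differed by -0.09 (95% interval -0.39 to 0.20). Ehmt2 read 11.55 to 11.87 in Trim33-KD and 11.51 to 11.77 in WT arrays and differed by 0.04 (-0.23 to 0.30).

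Ehmt1, with 1 probe set, read 11.12, 11.12, 11.16 and 11.24 in Trim33-KD arrays and 11.31, 11.31, 11.28 and 11.65 in WT arrays. The arrays of the genotypes did not overlap, but the difference of -0.23 (95% interval -0.49 to 0.03) had a limma adjusted p of 0.414. It shrank to -0.14 without WT-SB replicate 2, the highest WT array, and to -0.03 with each array centred on its median. Counted over all members, 5 of 25 probe sets did not overlap between Trim33-KD and WT, against 9.9% of all probe sets. They were both bright Trim33 probe sets and Ehmt1 on the lower side and the brightest Trim24 and the fourth Cbx1 probe set on the higher. The median difference was -0.02 over the 25 member probe sets and -0.13 over all probe sets.

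The second Setdb1 and the second Ehmt2 probe set in brightness split the WT arrays by replicate number. On the next brightest Setdb1 probe set, WT-ac replicate 1 read 9.41 and WT-SB replicate 1 read 9.45. The Trim33-KD arrays read 6.85 to 7.59 and the Smad4-null arrays 7.28 to 7.77, and the WT replicate 2 arrays 7.52 and 7.07. On the dimmer Ehmt2 probe set the WT replicate 1 arrays read 9.60 and 9.48, against 7.28 to 7.94 in Trim33-KD, 7.77 to 8.07 in Smad4-null and 7.56 and 6.88 in the WT replicate 2 arrays. The gap between the lower WT replicate 1 array and the highest of the other 10 was 1.64 for Setdb1 and 1.40 for Ehmt2, which ranked 20 and 31 of 45037 probe sets.

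In all, 122 probe sets (0.271%) had both WT replicate 1 arrays over 1 log2 unit above the other 10 arrays, and 11 had them that far below. On the brightest Setdb1 and Ehmt2 probe sets the WT replicate 1 arrays lay within the range of the others, though above WT replicate 2 by 0.22 with either treatment for Setdb1, and by 0.26 with activin and 0.16 with SB431542 for Ehmt2. The Trim33-KD minus WT differences of these second probe sets, -1.24 and -0.80, had limma adjusted p of 0.396 and 0.586 and rest on these arrays. The third and dimmest Setdb1 probe set differed by -0.02 (95% interval -0.54 to 0.49). What set these arrays apart was not tested.

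**Figure D3:**
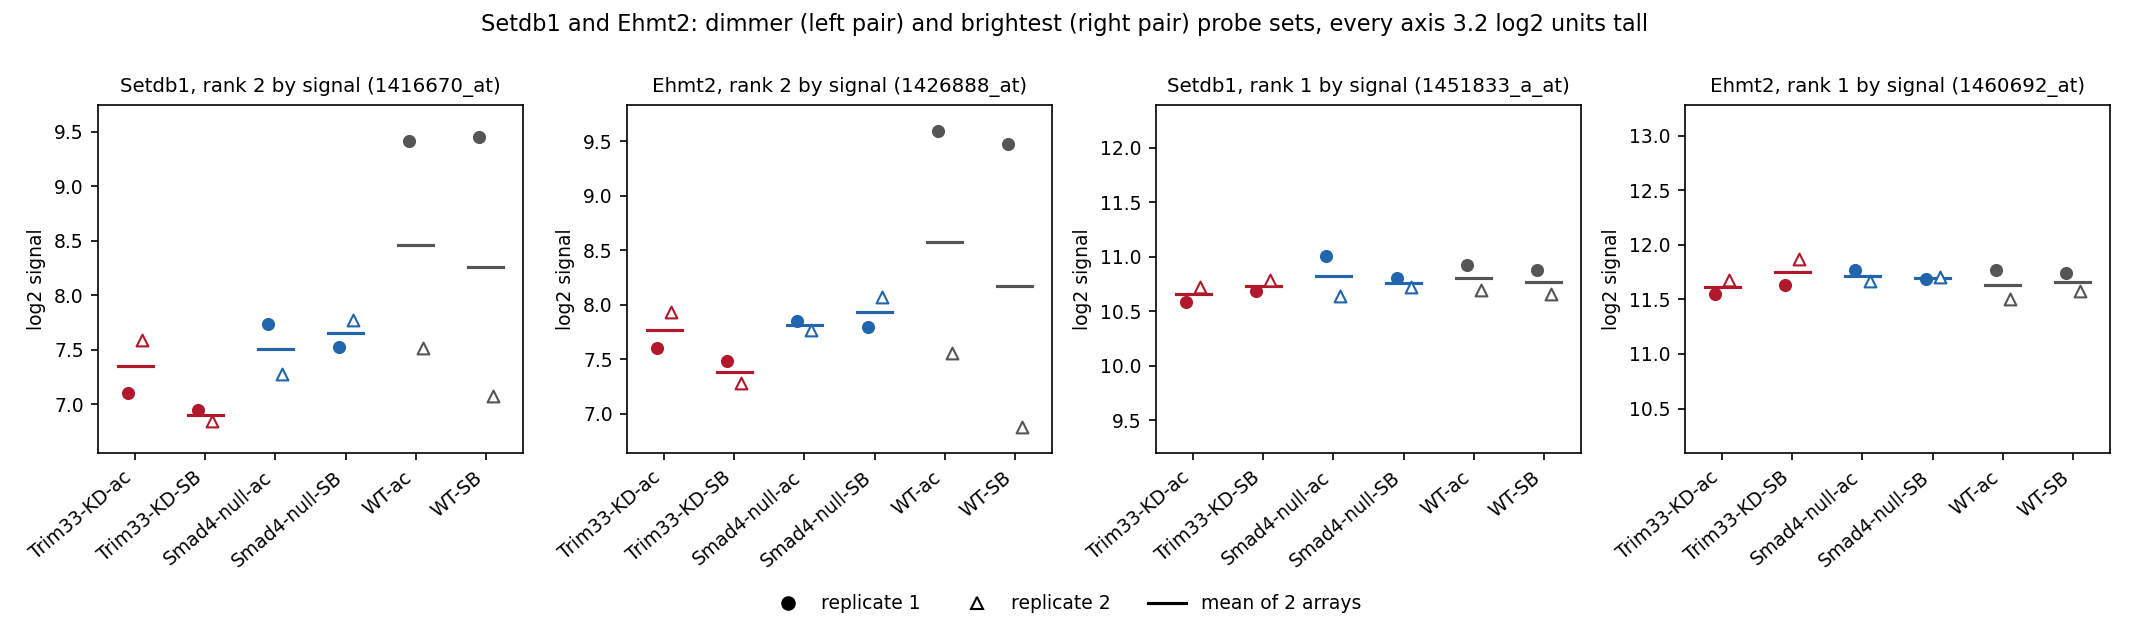
Log2 signal (vertical axis, each 3.2 units tall) of a dimmer and of the brightest probe set of Setdb1 and of Ehmt2 on each array, by group (horizontal axis); circles are replicate 1, triangles replicate 2 and bars the mean of 2 arrays. On the dimmer probe sets both WT replicate 1 arrays lie between 9.41 and 9.60, above the 10 other arrays, and on the brightest probe sets they do not.

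In Smad4-null embryoid bodies Cbx1 was the gene among the members with calls, and all were raised. The count was 4 of 25 member probe sets, against 8.84% of all probe sets called, 3.36% raised and 5.48% lowered. On the fourth Cbx1 probe set in brightness the signals were 7.31, 7.52, 7.45 and 7.62 in Smad4-null arrays against 6.83, 6.51, 6.80 and 6.76 in WT arrays. The difference was 0.75 (SE 0.13, limma adjusted p = 0.0137), or 169% of the WT signal (95% interval 136 to 209%). It was not particular to Smad4-null. On this probe set Trim33-KD minus WT was 0.73 (SE 0.13) and Trim33-KD minus Smad4-null was -0.02. The unadjusted limma p was 0.000556 in Smad4-null and 0.000669 in Trim33-KD, where the adjusted p was 0.125. The adjustment depends on all p-values of a comparison, and 3982 probe sets were called in Smad4-null minus WT against 51 in Trim33-KD minus WT.

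The second Cbx1 probe set in brightness read 12.22, 12.07, 12.11 and 12.10 in Smad4-null and 11.83, 11.65, 11.72 and 11.73 in WT arrays, a difference of 0.39 (SE 0.10, limma adjusted p = 0.0491). In Trim33-KD arrays it read 11.70, 11.68, 11.72 and 11.63, below every Smad4-null array, and Trim33-KD minus Smad4-null was -0.44 (SE 0.10, limma adjusted p = 0.0316). That call was lost without any 1 of the 8 Trim33-KD or Smad4-null arrays (adjusted p up to 0.113), and with each array centred on its median (-0.27, 0.185). The third was raised by 0.61 (SE 0.15, adjusted p = 0.0462) and the fifth by 0.89 (SE 0.21, adjusted p = 0.0455) in the limma fit of Smad4-null minus WT. On all of these the Smad4-null arrays lay above all 4 WT arrays.

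The brightest Cbx1 probe set also read higher on each Smad4-null array, 12.77, 12.83, 12.85 and 12.84 against 12.52, 12.59, 12.62 and 12.29 in WT arrays, but its difference of 0.32 (95% interval 0.06 to 0.57) was not called (limma adjusted p = 0.133). These 5 Cbx1 probe sets were the 5 of 25 members that did not overlap between Smad4-null and WT, against 19.1% of all probe sets. They measure 1 gene and are not independent of each other. The Smad4-null calls of Cbx1 were near the threshold.

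Over the single arrays left out, the call of the fourth Cbx1 probe set was lost without Smad4-null-SB replicate 2 (adjusted p = 0.0638) and kept its call otherwise. The call of the second was lost whichever array was left out (adjusted p 0.0726 to 0.155), the third was called only without Trim33-KD-SB replicate 1, Trim33-KD-SB replicate 2 or WT-SB replicate 2, and the fifth only without Trim33-KD-ac replicate 1, Trim33-KD-ac replicate 2 or WT-SB replicate 1. The differences of these 4 probe sets stayed between 0.35 and 1.06. With the replicate number as a block 1 Cbx1 probe set, the fourth, was called (adjusted p = 0.0247).

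**Figure D4:**
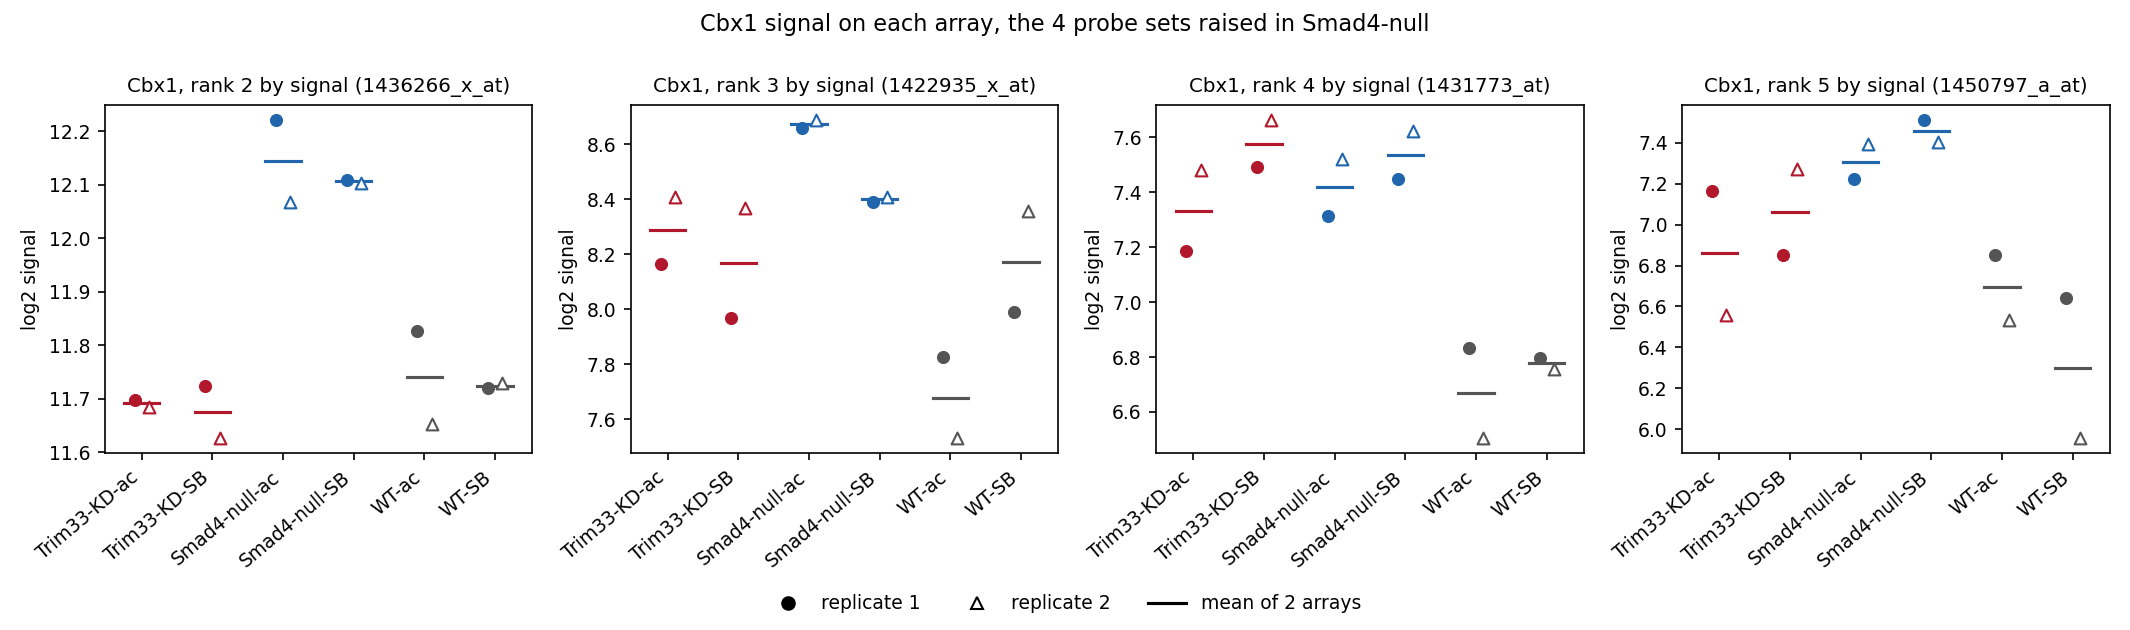
Log2 signal (vertical axis, a scale of its own in each panel) of the 4 Cbx1 probe sets raised in Smad4-null on each array, by group (horizontal axis); circles are replicate 1, triangles replicate 2 and bars the mean of 2 arrays. The 4 Smad4-null arrays lie above the 4 WT arrays in every panel, and the Trim33-KD arrays lie with the Smad4-null arrays on the fourth in brightness and with WT on the second.

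The other members did not differ from WT in Smad4-null arrays by the test. Trim24 differed by 0.03 (95% interval -0.20 to 0.27), Trim28 by 0.19 (-0.27 to 0.65), Cbx5 by -0.10 (-0.33 to 0.14), Setdb1 by 0.00 (-0.29 to 0.30), Ehmt1 by -0.11 (-0.37 to 0.15) and Ehmt2 by 0.06 (-0.21 to 0.33), each by its brightest probe set. The brightest probe set shared by Cbx3 and Cbx3-ps5 differed by 0.13 (-0.13 to 0.39). The next brightest of them read 13.10 to 13.22 in Smad4-null and 12.56 to 12.94 in WT arrays and differed by 0.35 (limma adjusted p = 0.183). The median difference was 0.05 over the 25 member probe sets and -0.02 over all.

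Genes that work with the members were followed by the brightest probe set of each, and in Trim33-KD minus WT none was called. These were 13 measured partners of the Trim28 corepressor, 10 other H3K9 methyltransferases and their partners and 4 genes of the HUSH silencing complex. The others were 11 H3K9 demethylases, 4 Polycomb CBX genes and 11 germline genes, listed as targets that H3K9 methylation silences in embryonic stem cells. The median differences in Trim33-KD minus WT were -0.03, -0.25, -0.10, -0.05, -0.21 and -0.24 in this order, beside -0.13 over all probe sets. These lists were drawn up with earlier results of these data known, so the counts of their calls are a description. They hold the brightest probe set of each gene, while the shares of all probe sets printed beside them also count dim ones. Counts and shares are therefore not like for like.

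In Smad4-null minus WT, where 8.84% of all probe sets were called, 3 of 13 Trim28 partners were called. Zfp57, the KRAB zinc finger protein that guards imprints, was raised by 0.67 and the chromatin assembly subunit Chaf1b by 0.54, and the NuRD helicase Chd3 fell by 0.50 on the log2 scale. Of 10 other methyltransferases and partners, the Setdb1 cofactor Atf7ip was raised by 0.62 and Setdb2 fell by 0.70. Of 4 HUSH genes, Pphln1 fell by 0.73 and Mphosph8, the subunit with a chromodomain, fell by 0.55. Over 23 alternatives the call was lost under 15 for Mphosph8, 11 for Chaf1b and 3 to 8 for the others named in this paragraph.

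Of 11 demethylases, beside 3.36% of all probe sets raised and 5.48% lowered, Kdm4c was raised by 0.54 and Phf2 fell by 0.89, and of 4 Polycomb CBX genes none was called. The call was lost under 18 of 23 alternatives for Kdm4c and under none for Phf2. Without both WT replicate 1 arrays, 0 Trim28 partners, 0 other methyltransferases and partners and 0 HUSH genes were called, and 1 demethylase. The counts with each single array left out ran from 0 to 3, 0 to 2, 0 to 2 and 1 to 1 in the order given; no call among the Trim28 partners was left without WT-ac replicate 1, without Smad4-null-ac replicate 2, or without 1 of the Smad4-null-SB arrays, whichever it was, none among the methyltransferases without Smad4-null-SB replicate 2, and none in HUSH without Smad4-null-SB replicate 2 or WT-ac replicate 1.

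Setdb2, Mphosph8 and the HUSH gene Tasor lie on chromosome 14 in the GRCm38.p6 annotation. Tasor differed by 0.42 in Smad4-null minus WT and was not called (limma adjusted p = 0.068). The 651 probe sets of chromosome 14 genes with a mean signal above the median had a median of -0.51 in Smad4-null minus WT. The median was 0.18 on chromosome 8 and lay between -0.08 and 0.07 on the chromosomes other than 8 and 14. The part of the chromosome in these gene differences was not tested.

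Of 11 germline genes 4 were raised and none lowered in Smad4-null minus WT, beside 3.36% of all probe sets raised and 5.48% lowered. The median difference of the 11 was 0.25, beside -0.02 over all probe sets. The list was drawn up with earlier results of these data known, so this count is a description. Its genes were not all dim in WT. Their mean log2 signals there ran from 2.43 (Tex101) to 9.64 (Ddx4), with Mael at 8.64 and Dazl at 7.78. Dazl, a germ cell RNA-binding protein, read 9.55, 9.19, 9.17 and 9.33 in Smad4-null and 7.89, 7.88, 7.71 and 7.64 in WT arrays. Slc25a31, a testis ADP/ATP carrier, read 7.54, 7.66, 7.88 and 7.75 in Smad4-null and 6.01, 5.98, 6.02 and 5.40 in WT arrays.

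These differences were 1.53 (SE 0.12, limma adjusted p = 0.000765) for Dazl and 1.86 (SE 0.17, adjusted p = 0.00147) for Slc25a31, and Stk31 (1.15) and Mael (0.42) were also raised. The call was lost under 17 of 23 alternatives for Mael and 4 for Stk31, and under none for Dazl and Slc25a31. The count was 3 without most single arrays and 2 without Smad4-null-SB replicate 1, without WT-ac replicate 1, or without both WT replicate 1 arrays. In Trim33-KD arrays Dazl read 7.54, 7.39, 7.25 and 7.35, below all 4 WT arrays, but the difference of -0.40 was not called (limma adjusted p = 0.255). Some markers of the epiblast and of other cell types were also called in Smad4-null minus WT, not all in the same direction. Of 5 extraembryonic endoderm markers 2 were lowered, of 4 trophectoderm markers 1 (Cdx2), of 5 epiblast markers 1 (Fgf5), and of 6 fibroblast markers 1 was raised (Dcn) and 2 lowered, beside the same shares of all probe sets. Cdx2 differed by -2.95, Fgf5 by -1.43 and Dcn by 3.27, and the first and the last exceed the differences of the germline genes.

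The mean log2 signal of the trophectoderm markers lay between 5.18 and 5.81 on Smad4-null and 5.58 and 6.59 on WT arrays, that of the extraembryonic endoderm markers between 5.26 and 6.35 and between 6.08 and 6.41. That of the fibroblast markers lay between 5.90 and 6.43 on Smad4-null and 5.45 and 6.29 on WT arrays, and that of the epiblast markers between 12.19 and 12.24 and between 12.19 and 12.54. Their part in the gene differences was not tested.

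Activin for 2 h gave no call among the members against SB431542. The count was 0 of 25 in Trim33-KD, in Smad4-null and in WT, by limma, while 0.00222%, 0% and 0.00444% of all probe sets were called. At an unadjusted p under 0.05 the members numbered 2, 0 and 1. The brightest Trim33 probe set differed by 0.17 in Trim33-KD (95% interval -0.30 to 0.65), by 0.15 in Smad4-null (-0.32 to 0.63) and by -0.08 in WT (-0.56 to 0.40). Over the brightest probe set of each of the 9 genes the activin minus SB431542 differences ran from -0.80 to 0.17 in Trim33-KD, from -0.05 to 0.44 in Smad4-null and from -0.80 to 0.11 in WT.

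The lowest in Trim33-KD and in WT was Cbx3, whose probe set is near the array median, and the highest in Smad4-null was Trim28. The Trim28 signal in Smad4-null-ac replicate 1, an array of narrow spread, was 14.38, against 13.85 on Smad4-null-ac replicate 2 and 13.63 and 13.72 on the Smad4-null-SB arrays. The test of the difference between responses called 0 of 25 members for Trim33-KD minus WT and 0 of 25 for Smad4-null minus WT, as it called 0% of all probe sets in each. At an unadjusted p under 0.05 the members numbered 0 and 1. With 2 arrays a group the intervals are wide, and a p above the threshold does not show that the members did not respond.

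**Figure D5:**
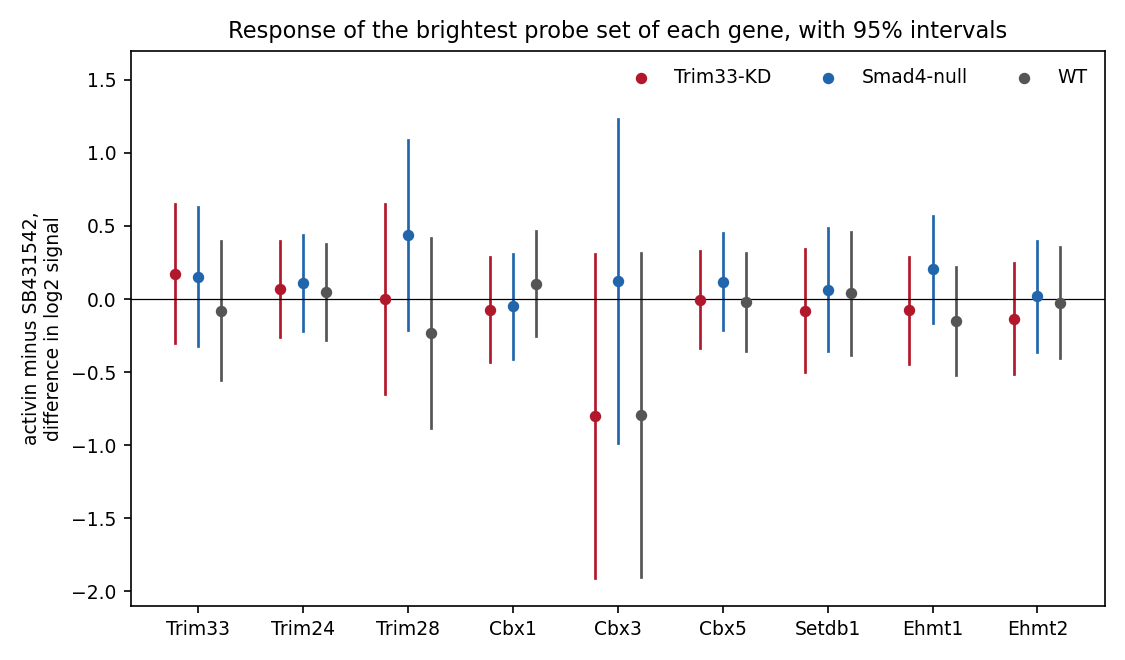
Activin minus SB431542 difference in log2 signal (vertical axis) of the brightest probe set of each of the 9 genes (horizontal axis) in Trim33-KD, Smad4-null and WT, with 95% limma intervals. Every interval holds 0, and the widest are those of Cbx3.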

How the data were processed

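Total RNA of 12 embryoid body samples was hybridized to Affymetrix mouse arrays, 2 in each of 6 groups. The authors deposited log2 signals per probe set; on the linear scale every array has a mean of 500 once 2% is trimmed at either end. The submitters' processing notes name limma, with no version. The summarization method and genome build are not given in the sources used here. Gene symbols came from the platform annotation, and the GRCm38.p6 gene table gave chromosomes. With 64 control probe sets left out, limma 3.58.1 in R 4.3.3 fitted 1 mean per group over the 12 arrays (eBayes with its default prior, 6 residual degrees of freedom). On data simulated with independent arrays, the Trim33-KD minus WT fit missed most small changes and nearly all changes of dim probe sets. Figures used Python 3.11.15 and matplotlib 3.10.9.

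All probe sets of the member genes are accounted for, by the rule for named genes; the probe set with the highest mean stands for a gene where 1 value is given, and for each gene of the other lists. Members and lists were chosen with earlier results of these data known. List genes with no matched probe set, among them Chaf1a, Magea2, Magea8, Tuba3a and T, were not analysed here. The labels tie no replicate number to a shared culture or day, and the fits treat the 4 arrays of a genotype as independent. Alternatives were other scalings, filters, priors, array weights, sample sets, a replicate block and leaving out each array.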

Additional observations from a re-analysis of the deposited data

Results flagged for a closer look

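In groups of 4 arrays of a genotype, 75 combinations of member probe set and genotype were searched for an array far from the other 3, and 3 were found; chance alone gives about 1 in 20. On the brightest Trim24 probe set, WT-SB replicate 2 read 11.54, with the nearest WT array at 11.64. On the Ehmt1 probe set, the same array read 11.65, with the nearest at 11.31. On the Cbx3 probe set, Trim33-KD-ac replicate 2 read 4.77, with the nearest Trim33-KD array at 6.09. Without WT-SB replicate 2 the Ehmt1 difference between Trim33-KD and WT was -0.14, and neither gene was called with or without it.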

How the results depend on the processing

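The difference of the brightest Trim33 probe set between Trim33-KD and WT ran from -1.66 to -1.34 over 23 alternatives, with limma adjusted p of 0.000297 to 0.204. It lost its call with only the groups compared (-1.54, adjusted p = 0.204), with a replicate block (-1.54, 0.0654), without the 2 arrays of narrow spread (-1.45, 0.128) and without both WT replicate 1 arrays (-1.66, 0.140), the last chosen after seeing the data. With single arrays left out it lay between -1.66 and -1.41. The member count of this comparison (2) became 1 with 1 probe set per gene, 1 with a replicate block, and 0 with only the groups compared, without the narrow arrays and without both WT replicate 1 arrays; with single arrays left out it was 0 to 2. The Smad4-null count (4, all Cbx1) became 1 with median centring, 1 with only the groups compared, 1 with a replicate block, and 0 with 1 probe set per gene, without the narrow arrays and without both WT replicate 1 arrays; with single arrays left out it was 0 to 2. Within activin Trim33 (-1.41) was called with the upper 50% of probe sets (-1.41, adjusted p = 0.0457) and with a trended, robust prior (-1.41, 0.0148), and within SB431542 (-1.67) likewise (-1.67, 0.0265, and -1.67, 0.00724). The causes were not tested, beyond fewer arrays or probe sets where the setting makes them fewer. Same-numbered arrays deviated together in 2 of 15 pairs of groups, both within a genotype (correlation 0.49 between the WT groups and 0.28 between the Trim33-KD groups, against -0.09 between the Smad4-null groups), and p-values over 4 arrays do not allow for it. The replicate block does not allow for it either, as it is a single term shared by all genotypes. Between groups of different genotypes the correlations ran from -0.23 to 0.08. A call kept with the block is therefore not freed of this dependence. The block removed the call of the brightest Trim33 probe set above, while the next brightest Trim33 probe set kept its call. The block also removed 3 of the 4 Cbx1 calls in Smad4-null minus WT. Trim33-KD minus Smad4-null had 2 to 4 member calls, and the responses and their differences 0.

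Over all probe sets, Trim33-KD minus WT had 51 calls (31 raised, 20 lowered), 52 after quantile normalization (39 and 13), 50 with median centring (41 and 9), 0 to 22 with any single array left out, 518 with the upper 50%, 366 with a trended, robust prior, 204 with a floor of 64 on the linear scale, 118 with 1 probe set per gene, 24 with array weights, 20 with a replicate block, and 0 with only the groups compared and without the narrow arrays. In Smad4-null minus WT the count ran from 1264 to 5874 around 3982. Dim probe sets have wide intervals, as the dimmest Trim33 probe set shows (-2.46 to 0.82).

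The differences recomputed under the alternatives numbered 84, and 34 of them changed sign under at least 1, none of which was called as reported (limma adjusted p of 0.501 or more) or with its sign changed (0.113 or more). With all arrays at the floor of 64, 8 differences gave no value. The median of all probe sets also changed sign, in Trim33-KD minus WT with median centring (0.08 against -0.13) and likewise in Smad4-null minus WT (0.02 against -0.02). Ordinals give the rank of a probe set by brightness within its gene.

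Trim33-KD minus WT was, without the 2 narrow arrays, -0.096 for the second Trim24 and -0.0032 for the first Ehmt2. Without both WT replicate 1 arrays it was -0.13 for the first Trim28, -0.077 for the second Trim28, 0.018 for the first Setdb1, 0.36 for the second Ehmt2 and 0.39 for the fourth shared Cbx3 probe set. After quantile normalization it was -0.013 for the second Trim28 and 0.21 for the third Setdb1. With median centring it was 0.15 for the second Cbx1, 0.14 for the first Cbx5, 0.11 for the first Setdb1, 0.18 for the third Setdb1 and 0.086 for the second shared Cbx3 probe set. It was also 0.095 for the third shared Cbx3 probe set, 0.10 for the first shared Cbx3 probe set, 0.12 for Smad3 and 0.13 for Smad4. With the floor it was 0.018 for the third Setdb1. With single arrays left out it ran from -0.096 to 0.19 for the second Trim24, -1.51 to 0.020 for the third Trim24, -0.097 to 0.27 for the first Trim28 and -0.046 to 0.16 for the second Trim28. It ran from -0.60 to 0.061 for Cbx3, -0.071 to 0.12 for the second Cbx5, -0.17 to 0.13 for the third Setdb1 and -0.029 to 0.10 for the first Ehmt2. It ran from -0.24 to 0.014 for the second shared Cbx3 probe set, -0.26 to 0.053 for the third shared Cbx3 probe set, -1.16 to 0.083 for the fourth shared Cbx3 probe set and -0.095 to 0.58 for Trim66.

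Smad4-null minus WT was, without the 2 narrow arrays, 0.18 for the third Trim33, -0.024 for the first Trim24, -0.25 for the second Trim24, 0.17 for the third Trim24 and -0.0057 for Cbx3. It was also -0.14 for the first Setdb1, -0.0045 for the first Ehmt2 and -0.27 for Trim66. Without both WT replicate 1 arrays it was -0.11 for the first Trim33, -0.033 for the first Trim28, 0.11 for the fourth Cbx5, 0.28 for the second Setdb1 and 0.66 for the second Ehmt2. It was also -0.0093 for Trim66. After quantile normalization it was -0.018 for the first Trim33 and 0.022 for Smad3. With the floor it was -0.069 for Cbx3. With single arrays left out it ran from -0.082 to 0.10 for the first Trim33, -0.58 to 0.13 for the third Trim33, -0.10 to 0.20 for the second Trim24 and -0.51 to 0.34 for the third Trim24. It ran from -0.15 to 0.24 for Cbx3, -0.053 to 0.13 for the second Cbx5, -0.087 to 0.094 for the first Setdb1 and -0.0041 to 0.13 for the first Ehmt2. It ran from -1.15 to 0.15 for the second Ehmt2 and -0.35 to 0.49 for Trim66.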
